A study of Danio rerio with 6 samples.

Results

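The 100 transcripts described here were detected in all 6 libraries of endothelial cells sorted from zebrafish larval tails, and their levels were lower in every library from larvae given leukaemia-cell vesicles than in any control library. They were chosen from the measured values. The level of a transcript (CPM) is its estimated count divided by the total of its library, times 1000000. Transcripts needed 10 or more counts in all 6 libraries, and the 200 with the highest mean CPM were dropped, which left 10197 eligible of the 57192 transcripts listed. These were ranked by the lowest control CPM divided by the highest CPM after vesicles, called the gap ratio below, and the 100 largest ratios were taken. Only 103 eligible transcripts, or 1.01%, had a gap ratio above 1. The list thus holds nearly every eligible transcript whose groups did not overlap in this direction. Transcripts with fewer than 10 counts in any library could not enter, also those that were that low only after vesicles. Levels, ranks and fold changes of the 100 between the groups are therefore a description of how they were chosen.

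All larvae were wild type and carried the Tg(flk:GFP) transgene, in which the promoter of a vascular endothelial growth factor receptor gene drives green fluorescent protein (GFP) in blood vessel cells. The control group (PBS, 3 libraries) was injected with phosphate-buffered saline, and the treated group (EV, 3 libraries) with extracellular vesicles derived from MV4-11 cells, a human acute myeloid leukaemia line. The labels give 500 injected larvae, and cut tails were collected at 24 h, so each library pools the tails of many animals. The age of the larvae is not given in the sources used here, nor whether the 3 replicates of a group came from separate batches of larvae. Any p-value below sets the difference against the spread of these libraries alone, part of which may be technical.

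Endothelial cells line blood and lymph vessels. The tail of the zebrafish larva also holds the caudal haematopoietic tissue, a vascular plexus in which blood stem cells lodge and multiply next to endothelial cells. Extracellular vesicles are membrane-bound particles that carry proteins and RNA from the cell that released them, and endothelial and scavenging cells of the larval tail vessels are known to take up particles from the blood. The comparison asks which endothelial transcripts differ after leukaemia vesicles have circulated.

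The deposited table names each transcript by its Ensembl identifier alone, and 0 of the 57192 identifiers matched the gene tables used here. No listed transcript is therefore given a gene name, a position, a sequence or a function, and the endothelial identity of the sorted cells was not checked against marker genes. In such sorted bulk samples, fewer cells of a type and less RNA per cell cannot be told apart. Library totals ran from 17350094 to 24332767 estimated counts in PBS and from 10393944 to 18806442 in EV, so that 1 count was worth 0.0411 to 0.0962 CPM. PBS replicate 3 had the least even library. There the 200 transcripts dropped for their abundance held 60.8% of the counts, against 48.5% to 56.2% in the other 5 libraries.

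The 100 transcripts were of moderate abundance and together made up a small part of each library. Their summed share of all counts was 0.224%, 0.201% and 0.417% in PBS replicates 1, 2 and 3, and 0.124%, 0.13% and 0.102% in EV replicates 1, 2 and 3. PBS replicate 3 thus held about as much of them as both other PBS libraries combined, and the EV libraries lay close to each other. The median transcript of the list stood at 11.8, 9.25 and 15.5 CPM in the PBS libraries and at 5.63, 5.83 and 3.18 CPM in the EV libraries. Among all eligible transcripts the medians were 14.8, 8.64 and 9.12 CPM in PBS and 14.5, 14.5 and 10.6 CPM in EV. The listed transcripts were near the eligible median in PBS replicates 1 and 2, above it in PBS replicate 3, and well below it in all EV libraries. The median mean CPM over the 6 libraries was 9.26 for the list (range 2.17 to 178.6) and 13.1 for the eligible transcripts.

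**Figure D1:**
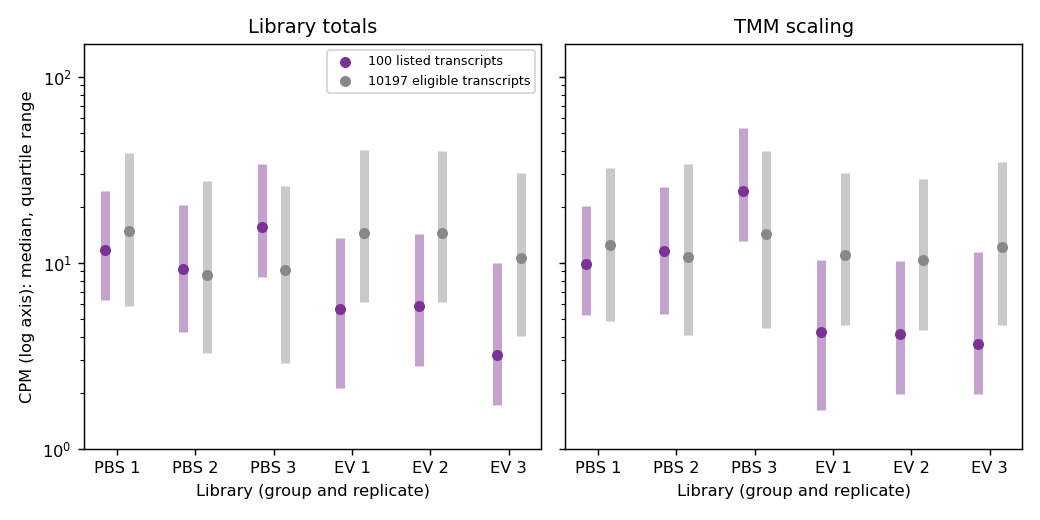
Median (point) and quartile range (bar) of the level of the 100 listed transcripts (purple) and of all 10197 eligible transcripts (grey) in each library, as CPM of library totals (left) and after TMM scaling (right), on log axes. The listed transcripts have their highest median in PBS replicate 3, 15.5 CPM with library totals, and their lowest medians in the EV libraries.

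The list falls off steeply from a few wide gaps to many narrow ones. The gap ratio was 3 or more for 4 transcripts, 2 or more for 6 and 1.5 or more for 15, with a median of 1.14. It lay from 1.1 to under 1.5 for 44 transcripts and under 1.1 for 41. The 3 transcripts at the end of the list had ratios of 1.0046, 1.0045 and 1.0038, and the next 3 outside it had 1.0038, 1.0029 and 1.001. Group means lay farther apart than the gap, since they also hold the high PBS libraries. They were 2 or more times apart for 64 of the list (5.65% of the eligible) and 3 or more times for 32 (1.96% of the eligible). The end of the list is thus a limit on length and not a step in the data. Counting error alone spans many of the gaps. The exact 95% interval (Clopper-Pearson) of the ratio between the lowest PBS and the highest EV library excluded 1 for 28 transcripts and included 1 for 72. Such intervals cover counting error only. They may be too narrow even for that, since amplified reads without molecular identifiers are not independent molecules. The rule took these ratios because they were large and above 1, so the intervals are a description and not a test.

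**Figure D2:**
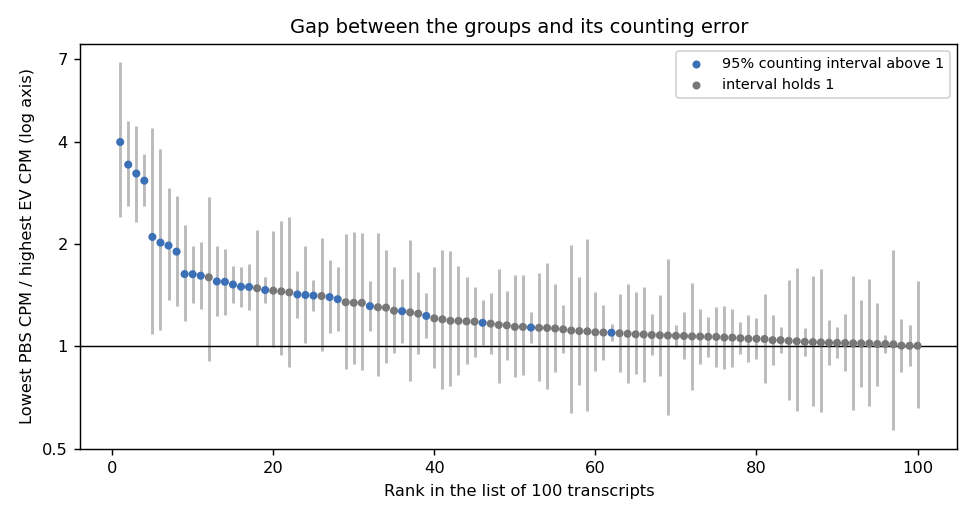
Gap ratio (lowest PBS CPM over highest EV CPM, log axis) of the 100 transcripts by rank, with exact 95% counting intervals as bars. The interval lies above 1 for 28 transcripts (blue) and includes 1 for the other 72 (grey), and 4 transcripts have a ratio of 3 or more. Only ratios above 1 were taken, so the intervals are not a test.

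The widest gap belonged to ENSDART00000182085.1, a transcript of low level. It had 3.98, 4.32 and 10.5 CPM in PBS replicates 1, 2 and 3, and 0.999, 0.976 and 0.687 CPM in EV replicates 1, 2 and 3. These rest on up to 195.2 estimated counts in PBS and on 10.1 to 18.8 in EV, and its gap ratio was 3.99 (95% counting interval 2.40 to 6.83). PBS replicate 3 was the highest library and the EV libraries were alike.

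ENSDART00000042755.7, second in rank, had 11.1, 13.1 and 46.1 CPM in the PBS libraries and 3.24, 2.31 and 1.34 CPM in the EV libraries. All its deposited values were whole numbers, so none shows a read divided between transcripts. PBS replicates 1 and 2 were close to each other and replicate 3 was several times higher. The group means were 23.4 ± 19.7 CPM in PBS and 2.30 ± 0.950 CPM in EV (SD, n = 3 each), 10.2-fold apart.

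ENSDART00000105636.5 had 11.6, 9.01 and 144.8 CPM in the PBS libraries and 2.80, 2.74 and 1.75 CPM in the EV libraries. ENSDART00000126873.4 had the largest difference of the list in group means, with 27.1, 64.3 and 660.9 CPM in PBS and 8.84, 6.32 and 4.90 CPM in EV. For both, most of the PBS mean came from replicate 3. The means of ENSDART00000126873.4 were 250.8 ± 355.7 CPM in PBS and 6.68 ± 2.00 CPM in EV (SD, n = 3 each), a 37.5-fold difference with an SD in PBS larger than the mean. Its gap ratio, which reads the lowest PBS library, was 3.07.

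Among the next 6 ranks, a pair of transcripts had even PBS levels with library totals. ENSDART00000051972.7 had 10.5, 7.26 and 9.31 CPM in the PBS libraries and 3.43, 3.82 and 1.28 CPM in the EV libraries. Its mean was 9.02 ± 1.63 CPM in PBS and 2.84 ± 1.37 CPM in EV (SD, n = 3 each), 3.17-fold apart. ENSDART00000183919.1 had 19.3, 15.6 and 18.8 CPM in PBS and 9.55, 5.70 and 2.94 CPM in EV, with means 2.95-fold apart. With library totals, PBS replicate 3 was the highest library in neither, and EV replicate 3 was the lowest in both. This evenness depended on the scaling. After TMM scaling (described below) PBS replicate 3 was the highest in both. The PBS levels were then 8.77, 9.03 and 14.5 CPM for ENSDART00000051972.7 and 16.1, 19.4 and 29.3 CPM for ENSDART00000183919.1.

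The other 4 of these ranks had their highest level in PBS replicate 3. ENSDART00000077095.6 had 3.49, 2.42 and 4.88 CPM in PBS and 0.798, 1.16 and 0.739 CPM in EV, which rest on 11 to 15 counts in EV. ENSDART00000159555.2 had 3.33, 2.31 and 18.9 CPM in the PBS libraries and 1.12, 1.13 and 1.14 CPM in the EV libraries. The EV levels of the latter were the most even of the named transcripts (1.13 ± 0.0130 CPM, SD, n = 3). They rest on only 21, 11.7 and 17 estimated counts, so little is read from this evenness. ENSDART00000155620.2 had 4.32, 6.34 and 21.6 CPM in PBS and 2.18, 1.83 and 1.34 CPM in EV. ENSDART00000133143.2 had 8.55, 8.47 and 15.9 CPM in PBS and 3.78, 5.20 and 3.63 CPM in EV. In all 4 the lowest PBS level, which sets the gap, came from replicate 1 or 2.

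**Figure D3:**
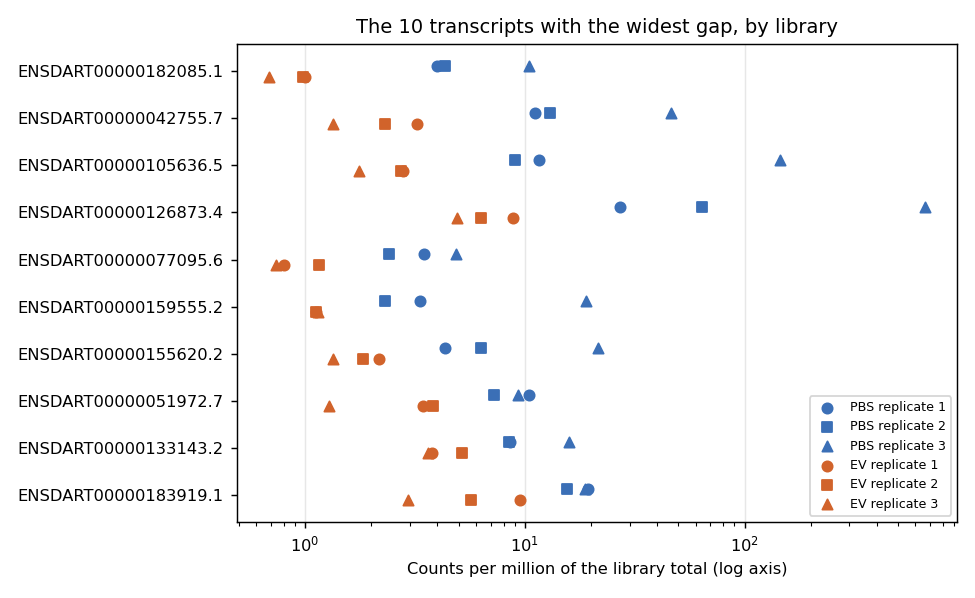
Level of the 10 transcripts with the largest gap ratios in each library, in CPM on a log axis, with PBS in blue, EV in orange and the replicate number as the symbol. Every blue point lies to the right of every orange point of its row, by the choice of the list, and PBS replicate 3 (blue triangle) is farthest right in 8 of the 10 rows.

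Of the 5 listed transcripts with the highest mean CPM, 3 had group means less than 1.5-fold apart. The other 2 were ENSDART00000126873.4, given above with its 37.5-fold difference in means, and ENSDART00000104336.4. ENSDART00000171450.2, the highest by mean CPM, had 198.6, 246.7 and 170.6 CPM in PBS and 138.9, 167.9 and 148.9 CPM in EV. Its means were 205.3 ± 38.5 and 151.9 ± 14.7 CPM (SD, n = 3 each), only 1.35-fold apart, and the lowest PBS and highest EV library nearly touched (gap ratio 1.02, 95% counting interval 0.958 to 1.08). ENSDART00000103267.4 had 158.7, 128.5 and 124.5 CPM in PBS and 113.6, 82.3 and 98.7 CPM in EV. Its means were 1.40-fold apart. ENSDART00000127355.3 had 121.4, 88.5 and 101.6 CPM in PBS and 54.1, 73.0 and 82.4 CPM in EV, with means 1.49-fold apart. ENSDART00000104336.4 had 51.4, 89.3 and 456.2 CPM in PBS and 34.0, 23.3 and 36.4 CPM in EV. Its means were 6.37-fold apart, with the largest value again in PBS replicate 3.

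The transcripts differed among themselves in how far PBS replicate 3 stood above the other control libraries. PBS replicate 3 was the highest PBS library for 62 of the 100, replicate 1 for 30 and replicate 2 for 8. Over all eligible transcripts these shares were 29.5%, 47.0% and 23.5%. PBS replicate 3 was at least 2 times both other PBS libraries for 26 listed transcripts, against 13.8% of the eligible ones. PBS replicate 1 stood out in this way for 2 listed transcripts (18.4% of eligible) and PBS replicate 2 for 1 (5.28% of eligible). PBS replicate 2 was instead the lowest PBS library for 61 (37.6% of the eligible) and so most often set the gap. On the EV side, replicate 3 was the lowest library for 63 listed transcripts and for 63.8% of the eligible ones, a share near that of the background. EV replicate 2 was the highest EV library for 55, against 38.4% of the eligible. These shares come from the levels on which the list was chosen, and a low PBS library closes the gap. Nothing is therefore read from how the shares differ from those of the eligible. PBS replicate 3 was the lowest PBS library for 14 of the list and 49.8% of the eligible. Among the 100 transcripts chosen as higher in EV by the same rule, it was the lowest for 63. Whether the state of PBS replicate 3, with its uneven library, had a part in these levels was not tested.

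Read by replicate number, the differences were widest between PBS replicate 3 and EV replicate 3. The CPM of PBS over that of EV had a median over the list of 2.14 for number 1, 1.41 for number 2 and 4.22 for number 3. Over all eligible transcripts the medians were 0.984, 0.646 and 0.753. Their quartiles were 0.706 and 1.33 for number 1, 0.419 and 0.952 for number 2, and 0.350 and 1.61 for number 3. Number 3 thus spread widest over the eligible transcripts too. The 100 transcripts chosen as higher in EV by the same rule had medians of 0.364, 0.360 and 0.185, also farthest from even for number 3. The wide ratios of number 3 are thus not particular to this list. Number 3 gave the widest of the 3 ratios for 77 listed transcripts, number 1 for 19 and number 2 for 4. By the choice of the list, all 3 ratios were above 1 for each of the 100, which held for 4.92% of the eligible. All 3 ratios were 1.5 or more for 36 listed transcripts and 2 or more for 16. These counts, and that of the widest ratio, were not taken over the eligible transcripts. The choice puts every ratio above 1, which raises the counts of large ratios, so nothing is read from them.

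A smaller part of the list was even within both groups. With library totals, the PBS libraries lay within 1.5 times of each other for 35 transcripts and the EV libraries for 25, and both held for 11. The median coefficient of variation within PBS was 39.1% for the list and 65.0% for the eligible transcripts, and within EV 31.8% and 40.2%. The choice favours evenness, since a low PBS library or a high EV library closes the gap. The list was close to the eligible transcripts in how often its counts were divided between similar transcripts. All 6 deposited values were whole numbers for 23 listed transcripts and 22.9% of the eligible ones, and none of the 6 was whole for 55 and for 49.4%. For those 55, part of the estimate rests on reads divided between transcripts, and a lower value of a transcript need not be a lower value of its gene.

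The fit over the whole table called no listed transcript. All 100 passed the filter of edgeR's quasi-likelihood test, which tested 18959 transcripts and called 0 of them at an adjusted p of 0.05 (percent called 0.0). The smallest adjusted p in the list was 0.982. At an unadjusted p under 0.05 and lower in EV stood 61 of the 100, beside 374 or 1.97% of all transcripts tested, and 173 tested transcripts were higher in EV at that level. The list was chosen on this contrast, so nothing is read from the difference. The median fitted log2 change (EV minus PBS) was -1.81 for the list and -0.20 for all tested transcripts, and the median standard error of the listed changes was 0.80. The smallest p-values belonged to ENSDART00000126873.4, with a log2 change of -6.08 (SE 1.35), ENSDART00000042755.7, with -4.11 (SE 0.92), and ENSDART00000105636.5, with -5.33 (SE 1.28). Each had an edgeR adjusted p of 0.982. They were followed by ENSDART00000137153.2 (-1.96, SE 0.49) and ENSDART00000144047.3 (-2.68, SE 0.70), both with an edgeR adjusted p of 1.00.

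These last transcripts were also well covered. ENSDART00000137153.2 had 68.9, 50.9 and 56.6 CPM in the PBS libraries and 21.8, 33.5 and 11.7 CPM in the EV libraries, from 174.2 to 1676 estimated counts. ENSDART00000144047.3 had 70.2, 65.5 and 171.4 CPM in PBS and 44.7, 22.2 and 12.2 CPM in EV. With library totals the former was even across PBS and uneven across EV. After TMM scaling its PBS levels were 57.6, 63.3 and 88.1 CPM. The latter was high in PBS replicate 3 and in EV replicate 1 for its group.

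Other tools called a few of the list. DESeq2's Wald test called 62 of 18959 transcripts (0.327%) in either direction, 33 of them lower in EV. Of the 18959, 642 had no adjusted p and could not be called. The test called 3 of the 100: ENSDART00000126873.4 (adjusted p = 3.37e-05), ENSDART00000042755.7 (adjusted p = 0.00259) and ENSDART00000005682.7 (adjusted p = 0.0108). The last is named after its values were seen. It had 22.2, 6.92 and 121.5 CPM in PBS and 6.33, 2.98 and 3.29 CPM in EV, so PBS replicate 2 lay just above EV replicate 1. With the replicate number as a block, DESeq2 called 10 of the 100, beside 164 or 0.865% of all tested, 97 of them lower in EV. In that fit 2206 transcripts had no adjusted p and could not be called. Limma-voom with the block called 3, beside 24 or 0.127% of all tested, 23 of them lower in EV. The 3 called by limma-voom were ENSDART00000126873.4 (adjusted p = 0.00741), ENSDART00000104336.4 (adjusted p = 0.038) and ENSDART00000105636.5 (adjusted p = 0.0486), all with their highest level in PBS replicate 3. EdgeR with the block and limma-voom without it called 0 of the 100. ENSDART00000126873.4 was called by DESeq2 with and without the block and by limma-voom with it, and not by edgeR with the filter. These fits use the same libraries on which the list was chosen, so nothing is read from calls shared between tools. The DESeq2 and limma-voom fits with the block were chosen after seeing the data. EdgeR without a filter on low counts called 9 of the 100, beside 427 or 1.09% of 39325 transcripts, 333 of them lower in EV.

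How many transcripts lie apart in this direction depended on the scaling. TMM scaling, which sets the libraries level by the bulk of their transcripts in place of their totals, moved the median log2 difference of group means over the eligible transcripts from 0.20 to -0.25. With it, 532 eligible transcripts (5.22%) were lower in every EV library than in any PBS library and 267 (2.62%) were higher, where library totals gave 103 lower (1.01%) and 555 higher (5.44%). Of the 100 listed transcripts, 90 were without overlap under TMM and 89 under median-of-ratios scaling, where 457 eligible transcripts (4.48%) were. Their median log2 difference was -1.23 with library totals, 1.43 below the eligible median, and -1.81 under TMM, 1.56 below it. Under TMM, which raises every level in PBS replicate 3 against the other PBS libraries, that library was the highest of its group for 87 listed transcripts and 42.7% of the eligible ones. The choice used the values of this library, so nothing is read from that difference.

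Whether the choice carries over to libraries it did not use was read by leaving libraries out. The same rule was applied without 1 PBS and 1 EV library, and the left-out libraries were then compared for the 100 transcripts so chosen, in each of the 9 combinations. Of each 100, between 20 and 58 were lower in the left-out EV library than in the left-out PBS library, with a median of 33. For libraries of the same number, the counts were 57 for number 1, 33 for number 2 and 58 for number 3, beside 47.1%, 21.9% and 34.6% of all eligible transcripts. For libraries of different numbers they ran from 20 to 41 and exceeded the eligible share in 2 of 6 combinations. PBS replicate 1 gave 41 with EV replicate 2 and 29 with EV replicate 3, beside 46.2% and 63.7% of the eligible. PBS replicate 2 gave 20 with EV replicate 1 and 31 with EV replicate 3, beside 27.3% and 45.2%. PBS replicate 3 gave 34 with EV replicate 1 and 29 with EV replicate 2, beside 28.5% and 28.8%. Under TMM the same-number counts were 60, 55 and 61 beside 54.8%, 55.0% and 44.0% of the eligible. All 6 counts for different numbers lay below the eligible share. PBS replicate 1 gave 47 and 25 with EV replicates 2 and 3 (58.3% and 49.2% of the eligible). PBS replicate 2 gave 38 and 36 with EV replicates 1 and 3 (50.6% and 48.6%), and PBS replicate 3 gave 40 and 39 with EV replicates 1 and 2 (46.5% and 47.6%). Transcripts chosen as lower in EV on 4 libraries were thus lower in the remaining EV library more often than other transcripts in same-numbered libraries, save number 2 under TMM, and mostly less often in libraries of different numbers. For different numbers, the same-numbered partner of each left-out library was used in the choice. Deviations from the group means correlated at 0.15 to 0.26 between same-numbered libraries. Whether the use of these partners in the choice altered the counts was not tested. Neither the same-numbered combinations nor those of different numbers settle whether the choice carries over. No p is given, since transcripts are not independent and the combinations share libraries.

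Differences of 2-fold or more in the left-out libraries were also counted. Among the 100 chosen without PBS replicate 3 and EV replicate 3, 54 were 2 or more times higher in the left-out PBS library, beside 19.3% of the eligible transcripts. For number 1 these were 28 beside 7.95%, and for number 2 they were 17 beside 3.28%. For libraries of different numbers the counts ran from 9 to 21, beside 6.02% to 31.3%, and exceeded the eligible share in 5 of 6 combinations. Under TMM they exceeded it in all 3 same-numbered combinations and in 2 of the 6 others. These counts read 1 tail only. With library totals and 0.5 CPM added, the median fold (PBS over EV) of the chosen was 1.11, 0.765 and 1.97 for numbers 1, 2 and 3. The eligible medians were 0.968, 0.653 and 0.663. For different numbers it ran from 0.33 to 0.811, beside 0.448 to 1.33, and lay below the eligible median in all 6 combinations. The opposite direction, transcripts chosen as higher in EV with library totals, was read for differences of any size and of 2-fold or more. For any size, 60, 78 and 69 of 100 were higher in EV for numbers 1, 2 and 3. The eligible shares were 52.8%, 77.8% and 64.5%. For different numbers the counts were 11 to 60, beside 36.0% to 72.6%, with all 6 below the eligible share. At 2-fold or more, numbers 1, 2 and 3 gave 12, 39 and 59, beside 14.9%, 37.9% and 44.7%. Different numbers gave 7 to 46 at 2-fold or more, beside 15.2% to 54.5%, and exceeded the eligible share in 0 of 6 combinations.

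**Figure D4:**
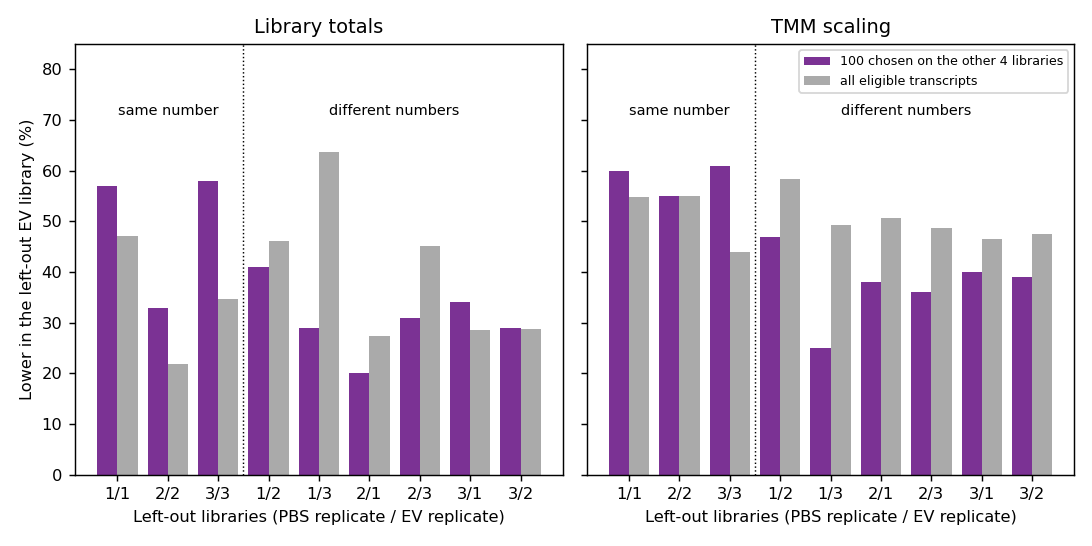
Share of transcripts that were lower in the left-out EV library than in the left-out PBS library, for the 100 transcripts chosen on the other 4 libraries (purple) and for all eligible transcripts (grey), with library totals (left) and TMM scaling (right). With library totals the purple bars stand above the grey ones for all 3 same-numbered combinations (57, 33 and 58 of 100), and for 2 of the 6 with different numbers.

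Membership itself shifted when single libraries were left out. The rule chose 39, 23 and 38 of the list again when PBS replicates 1, 2 and 3 were dropped in turn, and 56, 49 and 38 when the EV replicates were. Leaving out a library cannot lower a gap ratio, so listed transcripts not chosen again still had one above 1. More transcripts then competed for the 100 places. Those with a ratio above 1 numbered 296, 923 and 450 without PBS replicates 1, 2 and 3, and 202, 299 and 304 without the EV replicates, against 103. In all 6 of these selections 12 transcripts were chosen, and in none of them 21. The 10 of these 12 with the largest gaps were 9 of the 10 leading transcripts given above and ENSDART00000185354.1. The latter had 5.35, 2.33 and 5.71 CPM in PBS and 0.952, 1.09 and 1.46 CPM in EV, with a counting interval of its gap ratio from 0.905 to 2.76. When 1 library was left out and then read against the group it was not part of, 39, 23 and 38 of 100 lay on the side of their group for PBS replicates 1, 2 and 3, beside 26.3%, 13.0% and 20.4% of the eligible transcripts. For EV replicates 1, 2 and 3 these were 60, 55 and 45, beside 7.81%, 6.57% and 17.7%. Eligible transcripts here needed the minimum count in the remaining libraries only and numbered 10266 to 11950. The level each left-out library is read against was itself used in the choice, which raises these counts above the eligible share by construction. For PBS these are the same 39, 23 and 38 transcripts that were chosen again above. For EV they include the 56, 49 and 38 chosen again. The counts are thus not a separate reading from that of membership.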

How the data were processed

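The deposited table holds estimated counts per Ensembl transcript, which the authors neither normalised nor summed by gene. The submitters' processing notes name build GRCz11, Salmon 0.03.1, edgeR 3.40.1 and Trim Galore 0.5.0 without a role or order. Libraries were made with 15 amplification cycles, per the labels' protocols. CPM and gap ratios were computed from the deposited values, and fits from values rounded to whole numbers. The members, lists and tests were chosen with earlier results of these data known. Tests were edgeR 4.0.16 (quasi-likelihood, TMM, filterByExpr, Benjamini-Hochberg adjustment over all tested transcripts), with DESeq2 1.42.0 and limma-voom (limma 3.58.1) as alternatives, in R 4.3.3, and were tested on simulated data. Standard errors are the size of the fitted log2 change over the square root of F.

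Transcripts were named by fixed rules: the 10 largest gap ratios, the 5 highest mean CPM, the 5 smallest p, and up to 10 chosen in all 6 selections that leave out 1 library. Marker and pathway lists could not be read, since no identifier matched a gene. Titles number the replicates in both groups. Deviations from the group means correlated at 0.15, 0.26 and 0.26 between same-numbered libraries and between -0.21 and 0.02 otherwise. Libraries were paired by these numbers in the titles, which do not state that same-numbered libraries belong together. The deviations of 3 libraries from their shared mean depend on each other. The values between different numbers are therefore not separate evidence from those between same numbers. Whether same-numbered libraries were prepared together was not tested.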

Additional observations from a re-analysis of the deposited data

How the results depend on the processing

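With edgeR, 0 transcripts were called under library totals, median-of-ratios factors, the replicate block, 10 or more counts in all libraries, and without each library in turn; limma-voom also called 0. At an unadjusted p under 0.05 the numbers over all tested transcripts ran from 406 to 3055 over these and the following fits, with 547 in the reported one. EdgeR without a filter called 427 of 39325, DESeq2 62, and, with the replicate block, DESeq2 164 and limma-voom 24. The listed transcripts lower in EV at an unadjusted p under 0.05 numbered 61 in the reported fit. With edgeR they numbered 18 with library totals, 29 without a filter, 47 with the replicate block and 55 with median-of-ratios factors. With 10 or more counts in all libraries they numbered 67. DESeq2 gave 60 and limma-voom 47, and with the replicate block these tools gave 74 and 72. Without 1 library they numbered 17 to 57 (36 and 38 without PBS replicates 2 and 3, and 17, 17 and 23 without EV replicates 1, 2 and 3). Over these fits the share of all tested transcripts at that level and lower in EV ran from 0.712% to 5.28%. The median log2 change of the listed transcripts, -1.81, was -1.23 with library totals and -1.97 to -1.28 without 1 library. The rule chose 58 of the 100 again under TMM, 60 under median-of-ratios scaling, 41 when ranked within same-numbered pairs (replicate block), and 23 to 56 without 1 library. Eligible transcripts apart in this direction numbered 103, 532 under TMM and 457 under median-of-ratios scaling. On the side of its group, the left-out PBS replicate 2 had 46 and EV replicate 2 had 91 of 100 under TMM. The eligible shares under TMM were 32.2% and 23.5%. With library totals the counts were 23 and 55, beside 13.0% and 6.57%. The level each was read against was itself used in the choice, which raises these counts by construction. None of the 17 named transcripts changed direction under any alternative. The choice, with every PBS level above every EV level, all but fixes this direction, so nothing is read from it. Of the 17, 6 passed the threshold under at least 1 alternative, in fits that called 0.127% to 1.09% of all tested transcripts in either direction. These fits use the libraries on which the list was chosen. The cause of these shifts was not tested. Both fits with a block other than edgeR's, the left-out combinations and TMM for left-out libraries were chosen after seeing the data. Library totals of 10393944 to 24332767 counts and the spread between libraries (a coefficient of variation of 93.3% in edgeR's fit) both bound the precision, and their parts were not separated.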
